A study of Mus musculus with 12 samples.

Results

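The TNF superfamily ligands are membrane or secreted trimers with which lymphocytes instruct or kill the cells they touch. The 9 ligand genes described here form a family named by gene symbol: Tnfsf10, Fasl, Tnf, Lta, Ltb, Tnfsf8, Tnfsf11, Tnfsf14 and Cd40lg. All 9 were present among the 14004 genes of the expression table, and all 9 passed the filter on low values that left 13058 genes for testing. They were followed in 12 RNA-seq libraries of mouse iNKT1 cells, the T-bet-dependent subset of invariant natural killer T cells, which are T cells that recognise lipids on CD1d.

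The cells of all groups bound CD1d tetramer and carried Tbx21Cre, a Cre recombinase expressed from the T-bet gene, with the Rosa26-YFP reporter that Cre switches on. The conditional knockout (cKO) cells also carried Ets1F/F alleles, which Cre removes once T-bet has been switched on; Ets1 is a transcription factor of lymphocytes. The control cells had Tbx21Cre and Rosa26-YFP without floxed Ets1. In all, 4 groups of 3 libraries each were compared: cKO liver, control liver, cKO thymus and control thymus. The libraries are described as independent replicates, and the labels give neither the age of the mice nor whether the libraries came from separate mice. The p-values therefore measure the spread between these libraries, which may be technical.

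Ets1 transcripts averaged 4602 ± 1107 in cKO liver, 17737 ± 1587 in control liver, 8225 ± 3176 in cKO thymus and 23745 ± 4279 in control thymus (deposited adjusted values, SD, n = 3 each). Its log2 fold change was -1.97 in liver (limma adjusted p = 0.0012) and -1.58 in thymus (limma adjusted p = 0.0095). All 13 markers of T cells and iNKT1 cells were in the table, with sums of 116501 to 168084 per library. Depth, recovered from the value of 1 read in each library, was 18.5 to 43.4 M reads in 10 libraries. It was 3.21 M in cKO liver library 2 and 3.87 M in control liver library 3. Control thymus libraries 1 and 2 stood apart, with 3528 and 2824 genes without a read against 966 to 2223 in the other 10 libraries. For the ligands, values without these libraries are given where they change a call, a direction or the size by much.

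As background, the ligands fall into 3 kinds by what their receptors do. Tnfsf10 (TRAIL) and Fasl (Fas ligand) are death ligands: their receptors recruit Fadd and caspase 8 and can kill the target cell. Tnf, Lta (lymphotoxin alpha) and Ltb (lymphotoxin beta) drive inflammation and lymphoid tissue organisation through TNF receptors and the lymphotoxin beta receptor. Cd40lg (CD40 ligand), Tnfsf14 (LIGHT), Tnfsf8 (CD30 ligand) and Tnfsf11 (RANKL) are costimulatory or instructive ligands; RANKL on thymic lymphocytes promotes maturation of medullary epithelium. Activated iNKT cells are known for Fas ligand and CD40 ligand, and liver lymphocytes of the NK and NKT type for TRAIL.

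Since Ets1 binds DNA at a GGAA core, the promoters of the death ligands and of Ltb are shown, the 3 members on which the comparisons and the motif search turn. Each sequence holds the 250 bases before the RefSeq start of transcription (GRCm38.p6), read 5′ to 3′ on the strand of the gene. The gene positions given further below are from GENCODE M21, whose starts can differ. The GENCODE starts of Tnfsf10 (27317028) and Ltb (35194439) lie inside these windows, so the last bases printed for them fall within the GENCODE gene. The capitals mark GGAA or its reverse complement TTCC.
Tnfsf10 (chr3:27316827-27317076, plus strand): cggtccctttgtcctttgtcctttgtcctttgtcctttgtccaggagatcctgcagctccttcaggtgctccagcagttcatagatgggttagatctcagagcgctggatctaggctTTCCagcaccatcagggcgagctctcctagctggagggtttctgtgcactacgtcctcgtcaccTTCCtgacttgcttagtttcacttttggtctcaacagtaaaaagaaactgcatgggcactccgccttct
Fasl (chr1:161788496-161788745, minus strand): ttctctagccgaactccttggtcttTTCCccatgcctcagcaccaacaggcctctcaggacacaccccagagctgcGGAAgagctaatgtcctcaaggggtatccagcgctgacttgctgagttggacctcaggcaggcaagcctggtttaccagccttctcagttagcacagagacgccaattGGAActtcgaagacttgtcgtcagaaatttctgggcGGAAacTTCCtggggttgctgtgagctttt
Ltb (chr17:35194257-35194506, plus strand): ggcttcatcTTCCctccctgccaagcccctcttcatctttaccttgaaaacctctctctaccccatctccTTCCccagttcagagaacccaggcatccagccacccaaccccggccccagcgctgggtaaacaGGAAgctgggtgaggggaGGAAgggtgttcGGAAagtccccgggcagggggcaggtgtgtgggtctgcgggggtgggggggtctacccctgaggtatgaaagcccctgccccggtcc

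The Tnfsf10 promoter held 2 of these cores, the Fasl promoter 5 and the Ltb promoter 5. The core alone is common: 93.4% of the 32851 promoters in the same table hold at least 1 within 250 bases, on either strand. A longer ETS-type motif, CNGGAAGT on either strand, was found in the Fasl promoter and in no other of the 8 members with an entry, and 7.58% of all promoters hold it. The Fasl match starts 26 bases before the start of transcription, within the pair of cores near the end of the printed sequence. An NF-kB-type motif (GGG, then 5 free bases, then CC, on either strand) was found in 6 of the 8 (45.8% of all promoters), with 4 matches each in Ltb and Tnfsf14, 2 each in Lta and Tnfsf11 and 1 each in Fasl and Tnf. The NF-kB-type match can itself contain a GGAA core, and each CNGGAAGT match contains 1, so these counts are not independent. These are matches of letters in a window of fixed length and were not tested as binding sites; the Cd40lg promoter was not analysed here.

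Levels between genes were compared per length, as deposited value per kb of annotated exon (GRCm38, GENCODE M21). On that scale Cd40lg was the leading member in all 6 liver libraries, with 31.5% to 41.9% of the summed value of the 9 ligands in cKO liver and 27.0% to 32.7% in control liver. In thymus the leading member differed: it was Fasl in all 3 control libraries (36.8% to 43.8%) and in cKO library 1 (38.9%), and Cd40lg in cKO libraries 2 and 3 (58.6% and 38.5%). The sum over the 9 ligands was 5976 to 6896 per kb in cKO liver and 7490 to 9666 in control liver, and 8498 to 9814 in cKO thymus and 5989 to 8136 in control thymus. On the deposited scale the sums of the 2 genotypes did not overlap in either tissue, lower in cKO cells in liver and higher in cKO cells in thymus. The thymic gap was narrow, from 8136 in the highest control library to 8498 in the lowest cKO library. Tested genes as a whole also leaned higher in cKO thymus, with a median of 0.24 on the log2 scale. Whether the thymic gap holds after TMM rescaling, or without control thymus libraries 1 and 2, was not tested. In the plot of shares the Tnfsf10 part did not overlap between the liver genotypes, at 3.54% to 6.05% in cKO liver and 12.5% to 21.6% in control liver. In thymus the Tnfsf10 share was 6.9% to 11% in cKO libraries and 5.42% to 17.0% in control libraries, which overlap.

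**Figure D1:**
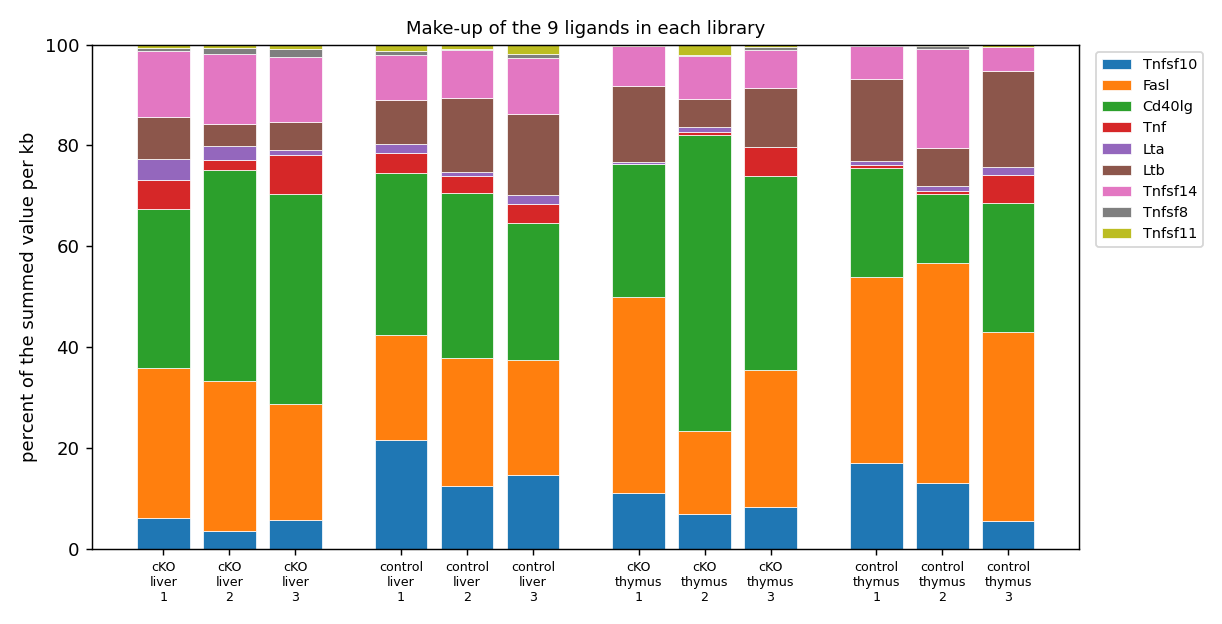
Share of each ligand in the summed deposited value per kb of exon of the 9 ligands (percent, vertical axis), 1 column for each of the 12 libraries. The Tnfsf10 share at the foot of the columns is 3.54% to 6.05% in cKO liver and 12.5% to 21.6% in control liver, and the Cd40lg share is above the Fasl share in all 6 liver libraries.

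Members also differed in how far replicates spread. The SD within groups, on the log2(value + 1) scale, was 0.405 for Fasl, 0.435 for Cd40lg, 0.517 for Tnfsf10, 0.535 for Tnfsf14 and 0.647 for Ltb. It was 1.05 for Lta, 1.94 for Tnfsf11, 2.07 for Tnf and 2.74 for Tnfsf8, against a median of 1.33 over all tested genes. The 5 steady members are also the 5 with the highest mean values, so that the test can show smaller differences for them than for the other 4.

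**Figure D2:**
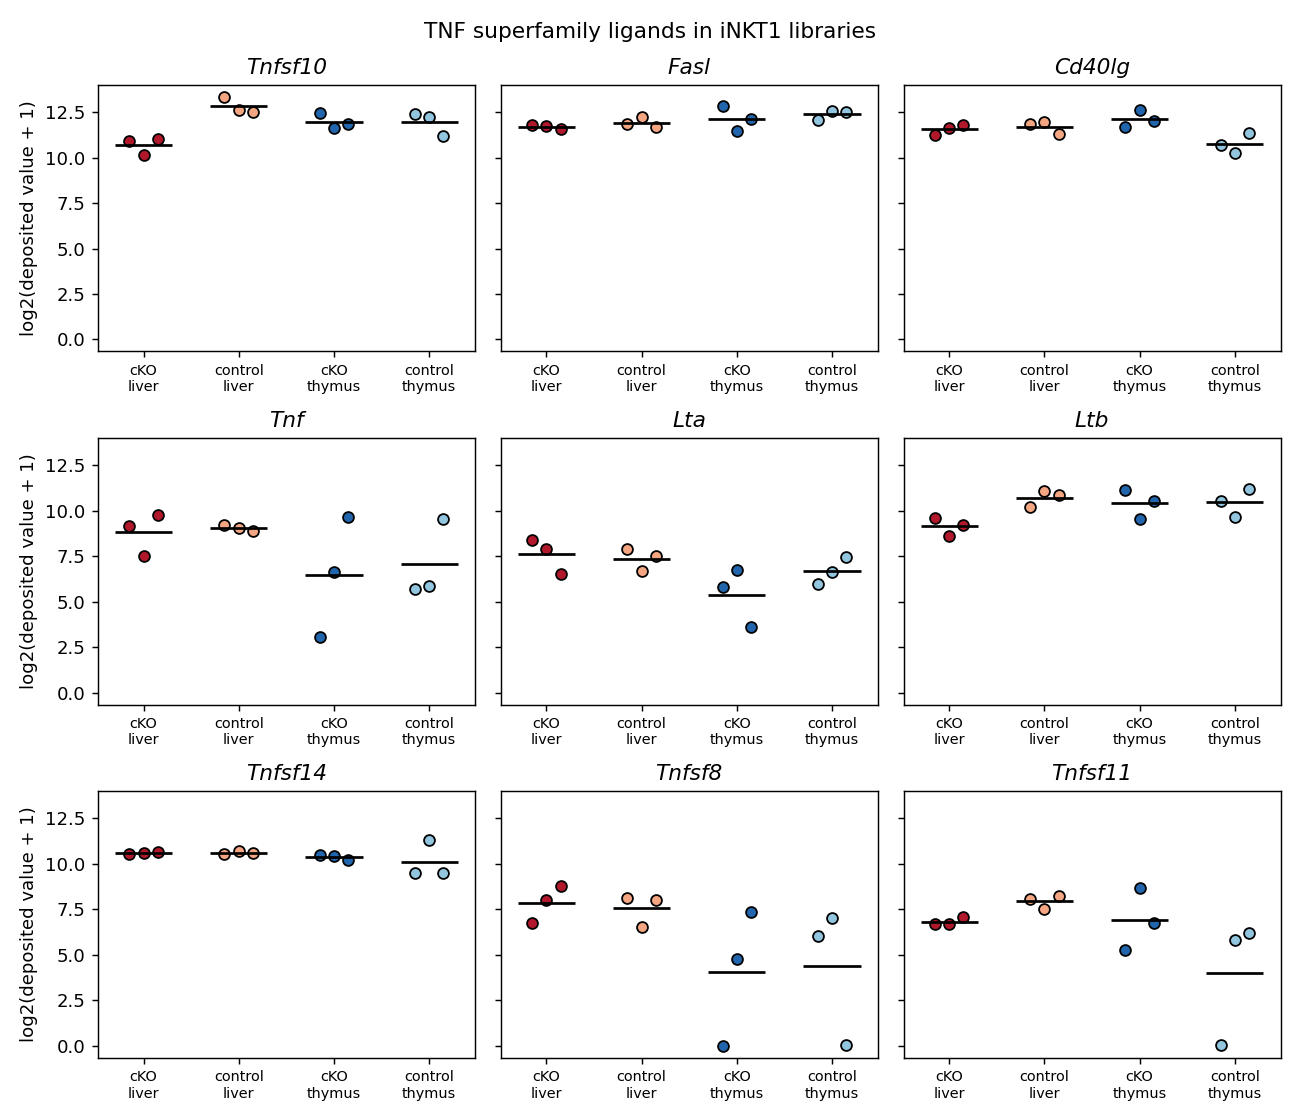
Deposited adjusted value of each ligand in every library, as log2(value + 1) on the vertical axis, with groups along the horizontal axis; each point is 1 library and each line the mean of the 3 libraries on that scale. Tnfsf10 is lower in cKO liver than in the other 3 groups, Cd40lg is lowest in control thymus, and Tnf, Tnfsf8 and Tnfsf11 scatter widely in thymus.

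The first comparison asked what loss of Ets1 changed in liver iNKT1 cells. Of the 9 ligands, Tnfsf10 alone passed the test: its mean in cKO liver was 0.228 of that in control liver, and the other 8 did not pass. Values of Tnfsf10, Ltb and Tnfsf11 did not overlap between the genotypes, each lower in cKO liver. That is 3 of 9 members (33.3%) against 18.6% of all tested genes with no overlap in this comparison, and 1 of 9 members called lower against 0.191% of all tested genes called lower (0.505% in either direction). By unadjusted p under 0.05, limma had 2 members (Tnfsf10 and Ltb), against 6.92% of all tested genes, and edgeR and DESeq2 each called Tnfsf10, against 0.299% and 2.22% of their tested genes. The median log2 fold change of the 9 was -0.21, against 0.02 over all tested genes.

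Tnfsf10 (ENSMUSG00000039304, chr3:27317028-27342427, plus strand, GRCm38), which encodes TRAIL, had values of 1929, 1114 and 2063 in cKO liver, against 10296, 6372 and 5747 in control liver. The highest cKO liver library thus lay well below the lowest control liver library. Group means were 1702 ± 514 in cKO liver and 7472 ± 2466 in control liver (SD, n = 3 each), resting on 5700 and 20209 reads in all. The log2 fold change was -2.14 ± 0.40 (SE, 95% interval -2.97 to -1.30, limma adjusted p = 0.014). In bulk RNA, fewer cells that express Tnfsf10 and less Tnfsf10 RNA per cell cannot be told apart. The log2 fold change stayed between -2.30 and -1.86 over the 22 alternative settings, and 18 of them kept the call. The call was lost without cKO liver library 2 (-1.86, limma adjusted p = 0.10), without control liver library 1 (-1.88, 0.13), without control liver library 2 (-2.23, 0.059), and without the 2 libraries of low depth together (-2.02, 0.22).

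Several marker levels moved with genotype in liver beside Tnfsf10. The summed value of the 5 of 13 myeloid markers in the table was 1157 to 1269 in cKO liver and 519 to 674 in control liver. Most of that difference was Itgam, an integrin chain that lymphocytes can also express. Itgam was at 536 ± 127 in cKO liver and 40.9 ± 59.0 in control liver (SD, n = 3 each). The macrophage gene Adgre1 averaged 11.8 ± 14.2 in cKO liver, from 0 to 27.6, and 0.278 ± 0.482 in control liver. Csf1r, another myeloid marker, averaged 12.3 ± 14.4 in cKO liver and 13.6 ± 20.7 in control liver (SD, n = 3 each). The 5 of 9 markers of iNKT17 and ILC3 cells summed to 419 to 876 in cKO liver and 984 to 7965 in control liver. The 7 of 9 markers of immature thymocytes summed to 5595 to 8607 in cKO liver and 10293 to 14835 in control liver; within them Cd4 averaged 908 ± 715 in cKO liver and 7106 ± 752 in control liver, and Rag1 and Dntt had 0 reads in all 6 liver libraries. Pecam1, the 1 of 8 endothelial markers in the table, was at 1.16 to 88.0 in cKO liver and 458 to 671 in control liver. The sums overlapped for the NK cell list (2761 to 4810 in cKO liver and 3516 to 8599 in control liver), for 5 of 8 hepatocyte markers (719 to 1646 in cKO liver and 1288 to 1714 in control liver), for 6 of 7 iNKT2 markers (8275 to 10159 in cKO liver and 8172 to 9871 in control liver) and for 7 of 8 B cell markers (26.8 to 98.9 in cKO liver and 5.95 to 759 in control liver). Within the overlapping iNKT2 sum single genes moved apart. Izumo1r (folate receptor 4) was called lower in cKO liver, at 18.0 ± 15.6 against 2608 ± 701 in control liver (SD, n = 3 each; log2 fold change -7.77, limma adjusted p = 0.00033), in limma, edgeR and DESeq2. Il13 averaged 668 ± 180 in cKO liver and 63.7 ± 11.5 in control liver, and Il17rb 1354 ± 359 in cKO liver and 307 ± 154 in control liver (SD, n = 3 each); neither passed limma. The part of these levels in the Tnfsf10 result was not tested.

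**Figure D3:**
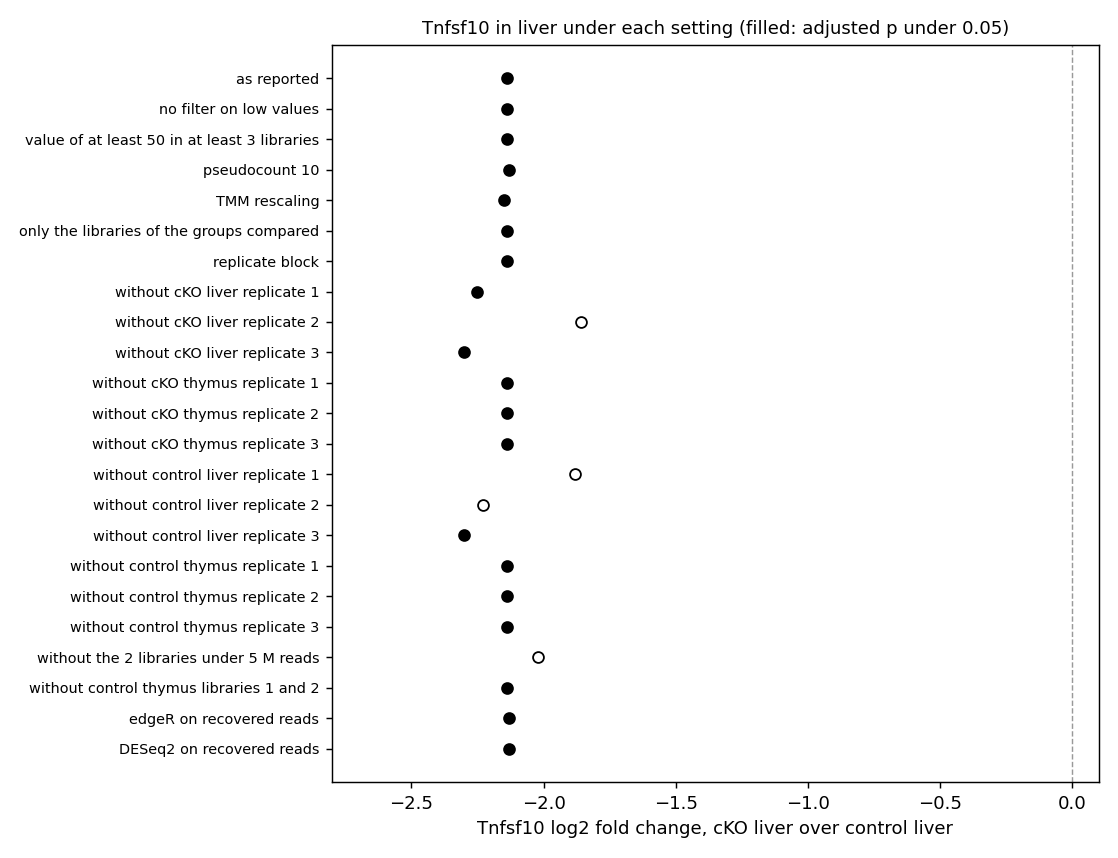
Log2 fold change of Tnfsf10, cKO liver over control liver (horizontal axis), as reported and under each of the 22 alternative settings (rows); filled points have an adjusted p under 0.05. All points lie between -2.30 and -1.86, and the 4 open points are 3 settings that leave out 1 liver library and the setting without the 2 libraries of low depth.

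Fasl (ENSMUSG00000000817, chr1:161780689-161788495, minus strand), the other death ligand, had values of 3495, 3439 and 3083 in cKO liver, against 3635, 4743 and 3326 in control liver. The groups overlapped, and the log2 fold change was -0.21 ± 0.35 (SE, 95% interval -0.94 to 0.52, limma adjusted p = 1). The lower end of this interval, -0.94, lies above the -2.14 measured for Tnfsf10 in the same libraries.

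Ltb (ENSMUSG00000024399, chr17:35194439-35196320, plus strand), which anchors lymphotoxin alpha at the cell surface as a heterotrimer, had values of 769, 394 and 589 in cKO liver, against 1187, 2156 and 1841 in control liver. Each cKO liver library was thus lower than each control liver library. The means were 584 ± 187 in cKO liver and 1728 ± 494 in control liver (SD, n = 3 each), and the log2 fold change was -1.57 ± 0.56 (SE, 95% interval -2.74 to -0.40). With an unadjusted limma p of 0.011 and an adjusted p of 0.37 it did not pass the test over all genes. Its adjusted p lay between 0.069 and 1 over the alternative settings. Ltb lies beside Tnf and Lta in the MHC region of chromosome 17, 3060 bases from Tnf, with Tnf 1157 bases from Lta and the 3 genes within 10913 bases. Its neighbours did not share the low values in cKO liver.

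Tnf (ENSMUSG00000024401, chr17:35199381-35202007, minus strand) had values of 580, 181 and 875 in cKO liver, against 589, 531 and 467 in control liver. Lta (ENSMUSG00000024402, chr17:35203165-35205351, minus strand) had 333, 240 and 92.1 in cKO liver, against 233, 101 and 182 in control liver. Both overlapped between genotypes, with log2 fold changes of -0.22 for Tnf (95% interval -3.19 to 2.74) and 0.26 for Lta (-2.47 to 2.98). The direction for Tnf was 0.04 under edgeR and DESeq2, and intervals this wide leave changes of several fold in either direction undetectable.

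Among the costimulatory ligands, Cd40lg (ENSMUSG00000031132, chrX:57212143-57224042, plus strand) had 2383, 3132 and 3589 in cKO liver, against 3638, 3949 and 2532 in control liver. Tnfsf14 (ENSMUSG00000005824, chr17:57189492-57194177, minus strand) had 1472, 1526 and 1623 in cKO liver, against 1493, 1702 and 1527 in control liver. The levels lay close together: the log2 fold changes were -0.15 (95% interval -0.96 to 0.66) for Cd40lg and -0.03 (-1.08 to 1.02) for Tnfsf14, and neither passed the test. Tnfsf8 (ENSMUSG00000028362, chr4:63831308-63861347, minus strand) had 105, 259 and 439 in cKO liver, against 281, 92.7 and 254 in control liver, and overlapped. Tnfsf11 (ENSMUSG00000022015, chr14:78277445-78308043, minus strand) had 103, 101 and 132 in cKO liver, against 265, 186 and 295 in control liver. For Tnfsf11 the groups did not overlap, but the log2 fold change of -1.13 had a 95% interval from -4.55 to 2.28 (limma adjusted p = 1), since the spread of this gene over all 4 groups enters the test and is large in thymus.

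**Figure D4:**
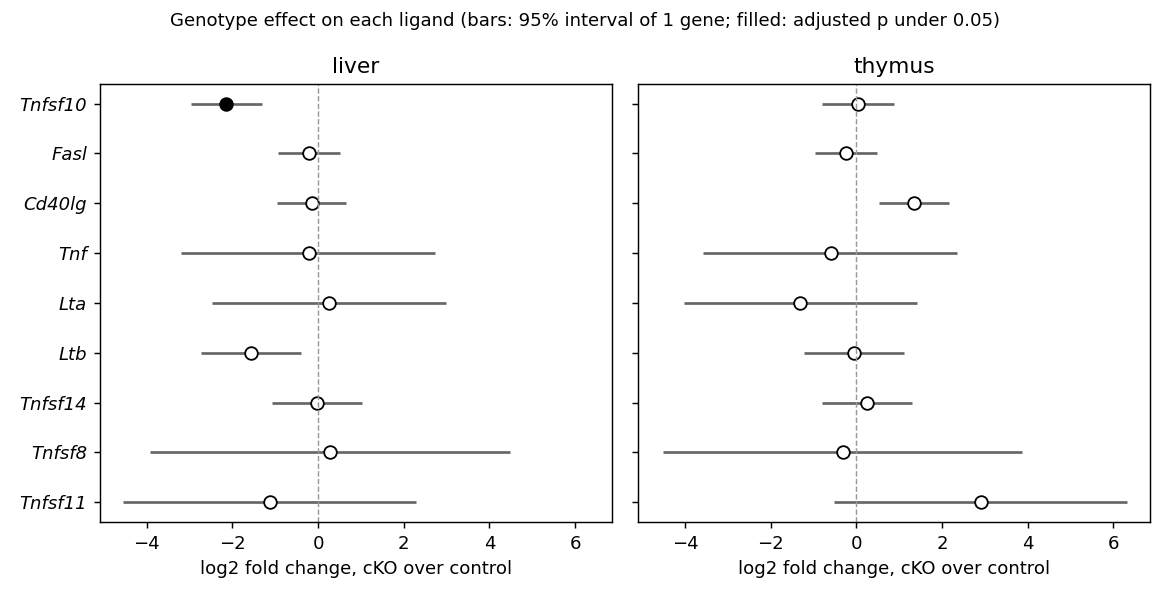
Log2 fold change of each ligand, cKO over control (horizontal axis), in liver (left) and thymus (right); bars are 95% intervals of 1 gene from the limma fit and the filled point has an adjusted p under 0.05. Tnfsf10 in liver (-2.14) is the 1 filled point, and the intervals of Ltb in liver (-2.74 to -0.40) and Cd40lg in thymus (0.54 to 2.16) also leave out 0.

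In thymus no member, Tnfsf10 included, passed the test in limma. Cd40lg was the 1 member whose libraries did not overlap, which is no larger a share than among all tested genes. Limma called 0 of 9 members, against 0.636% of all tested genes; 1 member had an unadjusted p under 0.05 (Cd40lg, against 13.2% of all tested genes). Of the 9, edgeR called 0 (0.391% of its tested genes) and DESeq2 called 1 (4.98% of its tested genes), again Cd40lg. Libraries of the 2 genotypes did not overlap for 1 of 9 members (11.1%), against 14.5% of all tested genes. The median log2 fold change of the 9 was -0.05, against 0.24 over all tested genes. That shift of all genes is -0.03 after rescaling by TMM.

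Cd40lg, whose product licenses dendritic cells and helps B cells through CD40, had values of 3238, 6347 and 4092 in cKO thymus, against 1627, 1208 and 2588 in control thymus. All 3 cKO libraries lay above all 3 control libraries, by the least between cKO library 1 and control library 3. The means were 4559 ± 1606 in cKO thymus and 1808 ± 708 in control thymus (SD, n = 3 each), and the log2 fold change was 1.35 ± 0.39 (SE, 95% interval 0.54 to 2.16). With an unadjusted limma p of 0.0025 and an adjusted p of 0.12 it did not pass. It passed in DESeq2 (1.30, adjusted p = 0.026) and in limma without control thymus library 3 (1.64, adjusted p = 0.031). It was 0.76 (limma adjusted p = 0.70) once the control thymus libraries that stood apart, 1 and 2, were left out.

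Tnfsf10 had values of 5691, 3150 and 3666 in cKO thymus, against 5370, 4821 and 2321 in control thymus. The ranges overlapped almost fully, and the means were 4169 ± 1343 in cKO thymus and 4171 ± 1625 in control thymus (SD, n = 3 each). The log2 fold change was 0.04 ± 0.40 (SE, 95% interval -0.79 to 0.87, limma adjusted p = 0.98). It was -0.25 after TMM rescaling and 0.80 (limma adjusted p = 0.70) with control thymus libraries 1 and 2 left out, so the value near 0 rests on those libraries. Leaving them out keeps 1 control thymus library, which is assumed to vary like the other groups. Fasl had 7387, 2775 and 4473 in cKO thymus, against 4270, 5985 and 5931 in control thymus, where the cKO libraries held both the highest and the lowest value. Its log2 fold change was -0.24 ± 0.35 (SE, 95% interval -0.97 to 0.49).

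Ltb had 2252, 750 and 1500 in cKO thymus, against 1487, 804 and 2348 in control thymus, a near-complete overlap (log2 fold change -0.05, 95% interval -1.22 to 1.12). Tnfsf14 had 1445, 1361 and 1175 in cKO thymus, against 720, 2575 and 736 in control thymus; the cKO values lay between the control values. For Tnfsf14 the log2 fold change was 0.25 (95% interval -0.80 to 1.30), and it was -0.04 after TMM rescaling. The remaining members were low or irregular in thymus. Tnf had 7.19, 99.0 and 808 in cKO thymus, against 51.6, 57.9 and 752 in control thymus, so that library 3 of both genotypes carried most of its reads. Lta had 55.4, 105 and 11 in cKO thymus, against 62.8, 97.2 and 172 in control thymus.

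Tnfsf8 had 0 reads, 26.1 and 165 in cKO thymus, against 63.9, 130 and 0 reads in control thymus. Tnfsf11 had 38.0, 410 and 108 in cKO thymus, against 0 reads, 54.4 and 72.8 in control thymus. At these depths 3 reads correspond to a value of 3.08 in cKO thymus library 1 and of 3.36 and 3.76 in control thymus libraries 1 and 3, which is the upper limit a count of 0 allows there, for counting error only. Tnfsf8 and Tnfsf11 thus ranged, among libraries of 1 group, between 0 reads and clear detection. Their log2 fold changes of -0.32 (95% interval -4.51 to 3.87) and 2.90 (-0.51 to 6.32) did not pass the test. With control thymus libraries 1 and 2 left out, the values were 3.99 for Tnfsf8, 0.71 for Tnfsf11, -3.11 for Tnf, -2.06 for Lta, -0.78 for Ltb and 0.84 for Tnfsf14, with limma adjusted p of at least 0.65.

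Markers of other cells also varied in thymus. The NK cell list summed to 6777 to 9320 in cKO thymus and 10475 to 15945 in control thymus, which do not overlap. Within it Fcer1g averaged 410 ± 136 in cKO thymus and 4759 ± 1968 in control thymus, and Klre1 1246 ± 422 in cKO thymus and 3293 ± 611 in control thymus (SD, n = 3 each). Other genes of that list had the higher mean in cKO cells, as Klrc1 did with 5466 ± 837 in cKO thymus and 4391 ± 1287 in control thymus, and Ncr1 had 0 reads in all 6 thymus libraries. Pecam1 was at 0.923 to 68.5 in cKO thymus and 71.7 to 302 in control thymus. Cd4 averaged 400 ± 322 in cKO thymus and 3652 ± 3336 in control thymus (SD, n = 3 each). Sums overlapped for the myeloid list (5.59 to 476 in cKO thymus and 36.0 to 196 in control thymus), B cells (3.11 to 566 in cKO thymus and 0.147 to 304 in control thymus) and hepatocytes (8.24 to 430 in cKO thymus and 110 to 868 in control thymus). They also overlapped for iNKT17 and ILC3 cells (84.6 to 163 in cKO thymus and 3.61 to 1970 in control thymus), iNKT2 cells (6536 to 11927 in cKO thymus and 6222 to 10750 in control thymus) and immature thymocytes (2739 to 4350 in cKO thymus and 2387 to 8442 in control thymus). Within the last list Themis, a signalling protein of thymocytes and T cells, was called higher in cKO thymus, at 2695 ± 342 against 545 ± 463 in control thymus (SD, n = 3 each; log2 fold change 2.76, limma adjusted p = 0.026; 2.52, adjusted p = 0.037, with control thymus libraries 1 and 2 left out). That call was lost without any 1 cKO thymus library, without the 2 libraries of low depth, in a fit of the thymus libraries alone and in edgeR (adjusted p of 0.066 to 0.66), and stood at limma adjusted p = 0.05 without cKO liver library 3. Rag1 reached 163 in cKO thymus library 3 and 486 in control thymus library 3, and was at most 2.79 in the other 4 thymus libraries. Their part in the Cd40lg values was not tested.

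Over both tissues together, limma called 0 of 9 members, against 2.27% of all tested genes, while edgeR and DESeq2 each called Tnfsf10, against 1.94% and 6.12% of their tested genes. Unadjusted limma p-values were under 0.05 for 2 members, Tnfsf10 and Cd40lg, against 13.7% of all tested genes. Tnfsf10 had a mean log2 fold change of -1.05 ± 0.28 (SE, limma adjusted p = 0.058), just over the threshold, with -1.08 in edgeR (adjusted p = 0.049) and -1.09 in DESeq2 (adjusted p = 0.0065). It was -1.24 (limma adjusted p = 0.015) without control thymus library 3, and -0.67 (limma adjusted p = 0.37) with control thymus libraries 1 and 2 left out. This mean joins -2.14 in liver, which passed the test, with 0.04 in thymus (0.80 with control thymus libraries 1 and 2 left out), which did not. Ltb was at -0.81 (limma adjusted p = 0.38) and Cd40lg at 0.60 (limma adjusted p = 0.33). Neither passed in a single tissue either: Ltb was at -1.57 in liver and -0.05 in thymus, and Cd40lg at -0.15 in liver and 1.35 in thymus.

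Whether the 2 tissues differ in their response was tested directly, as the genotype effect in liver minus that in thymus. Limma called 0 of 9 members and edgeR 0, against 0.00766% of all tested genes in limma and 0.023% in edgeR, and DESeq2 called Tnfsf10 (0.894% of its tested genes). Unadjusted limma p-values were under 0.05 for 2 members, against 5.38% of all tested genes. For Tnfsf10 the difference was -2.18 ± 0.56 on the log2 scale (SE, 95% interval -3.35 to -1.0), with an unadjusted limma p of 0.001 and an adjusted p of 0.71; DESeq2 gave -2.09 with an adjusted p of 0.046. With control thymus libraries 1 and 2 left out the limma difference was -2.93 (adjusted p = 0.36). Cd40lg was the other of these, at -1.50 ± 0.55, with an unadjusted limma p of 0.013 and an adjusted p of 0.91. Ltb was at -1.52 ± 0.79 (limma adjusted p = 0.93) and Fasl at 0.03 ± 0.49 (limma adjusted p = 1). By the limma adjusted value, the effect of genotype on Tnfsf10 was thus not shown to differ between liver and thymus.

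The comparison of tissues asked how the ligands differ between liver and thymus within a genotype. Limma, edgeR and DESeq2 each called 0 of 9 members in cKO cells and 0 of 9 in control cells, against 0.222% of all tested genes in cKO cells and 0.605% in control cells in limma. In edgeR 0.138% were called in cKO cells and 0.375% in control cells, and in DESeq2 2.18% in cKO cells and 3.89% in control cells. Unadjusted limma p-values were under 0.05 for 2 members in cKO cells (Tnfsf10 and Ltb, against 7.6% of all tested genes) and for 3 in control cells (Tnfsf10, Tnfsf11 and Cd40lg, against 12.7%). Libraries did not overlap for 2 of 9 members in each genotype (22.2%), against 16.1% of tested genes in cKO cells and 15.4% in control cells.

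Tnfsf10 changed its order between the genotypes. In cKO cells it averaged 1702 in liver and 4169 in thymus, without overlap (log2 difference -1.30 ± 0.40 SE, limma adjusted p = 0.27). In control cells it averaged 7472 in liver and 4171 in thymus, also without overlap (0.88 ± 0.40, limma adjusted p = 0.37), and the log2 difference was 1.64 (limma adjusted p = 0.31) with control thymus libraries 1 and 2 left out. Over the 4 groups its order was therefore control liver, control thymus, cKO thymus and cKO liver, and only the 2 thymic neighbours in that order overlapped.

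For the other members most neighbours in the order of levels were not separated. Fasl ran from control thymus (5396 ± 975) through cKO thymus (4878 ± 2332) and control liver (3901 ± 745) to cKO liver (3339 ± 224), with each neighbour overlapping the next. Cd40lg ran from cKO thymus (4559 ± 1606) through control liver (3373 ± 745) and cKO liver (3035 ± 609) to control thymus (1808 ± 708), also with overlap at each step. Ltb was close in control liver (1728 ± 494), control thymus (1546 ± 774) and cKO thymus (1501 ± 751) and lowest in cKO liver (584 ± 187), where cKO liver library 1 at 769 overlapped cKO thymus library 2 at 750. Among the 9 ligands the ratio of the highest to the lowest group mean was smallest for Tnfsf14, from 1574 ± 112 in control liver to 1327 ± 138 in cKO thymus; in cKO cells its liver libraries (1540 ± 76.6) did not overlap its thymus libraries (SD, n = 3 each for all these means).

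Tnf, Lta and Tnfsf8 had their 2 highest means in liver. Tnf averaged 545 ± 348 in cKO liver, 529 ± 61.1 in control liver, 305 ± 438 in cKO thymus and 287 ± 403 in control thymus. Lta averaged 222 ± 122 in cKO liver, 172 ± 66.5 in control liver, 57.0 ± 46.8 in cKO thymus and 111 ± 55.7 in control thymus. Tnfsf8 averaged 268 ± 167 in cKO liver, 209 ± 102 in control liver, 63.7 ± 88.7 in cKO thymus and 64.5 ± 64.7 in control thymus. These gaps between tissues stayed within the spread: none of the 3 genes passed the test in either genotype, and the libraries overlapped. Tnfsf11 was highest in control liver (249 ± 56.1) and lowest in control thymus (42.4 ± 37.8), without overlap (log2 difference 3.93 ± 1.63 SE, limma adjusted p = 0.32; 1.73, adjusted p = 0.79, with control thymus libraries 1 and 2 left out), with 185 ± 198 in cKO thymus and 112 ± 17.4 in cKO liver between them.

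The genes whose values followed each member most closely over the 12 libraries were found by Pearson correlation of log2(value + 1) among 10482 genes with a mean of at least 50. The libraries share 4 groups and 2 tissues, so these values are descriptions without a test. For Tnfsf10 they were Tram1 (r = 0.905), a translocon-associated protein, Xcl1 (0.853), a chemokine of activated lymphocytes, and Tex2 (0.852). Xcl1 is itself lower in cKO liver, at 592, 494 and 999, against 4054, 3230 and 4420 in control liver (log2 fold change -2.54, limma adjusted p = 0.0062). For Fasl they were Zcchc7 (0.905), Rbbp6 (0.879) and Fam208a (0.860); for Cd40lg, Znfx1 (0.899), Dph3 (0.884) and Zfp963 (0.882); and for Ltb, Mob4 (0.872), Cd274 (0.830) and Neurl3 (0.829). The closest for the others were Zfp3 for Tnfsf14 (0.929), Bst2 for Tnfsf11 (0.979), Sae1 for Tnfsf8 (0.949), Uchl3 for Tnf (0.907) and Rasgrf2 for Lta (0.853). No member was among the 3 closest genes of another member.

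The genes around the ligands were counted next, from 8 lists of ligands, receptors and signalling genes, chosen with earlier results of these data known. Of the 9 further TNF family ligands listed, 3 were in the table, and over both tissues 1 rose in cKO cells, Tnfsf18, the ligand of GITR (2.27% of all tested genes were called in this comparison). Tnfsf18 had values of 215, 422 and 274 in cKO liver, against 0, 51.5 and 0.868 in control liver. It had 265, 57.0 and 152 in cKO thymus, against 0 reads, 0 reads and 2 reads in control thymus. Every cKO library lay above every control library. The mean log2 fold change was 6.21 ± 1.27 on the log2(value + 1) scale (SE, limma adjusted p = 0.012). In thymus alone the ratio of read shares was 226 with a counting interval of 62.2 to 1870. That interval pools the reads of each group and leaves out the spread between libraries. The limma test in thymus alone did not pass (adjusted p = 0.12). The call was lost in edgeR (adjusted p = 0.070), without the 2 libraries of low depth (limma adjusted p = 0.13) and with control thymus libraries 1 and 2 left out (limma adjusted p = 0.062). Its receptor gene Tnfrsf18 (GITR) averaged 1676 ± 685 in cKO liver, 2567 ± 696 in control liver, 1730 ± 814 in cKO thymus and 1798 ± 651 in control thymus (SD, n = 3 each), and did not pass. The other listed ligands, Tnfsf9 and Tnfsf4, did not pass either: Tnfsf9 averaged 143 ± 176 in cKO liver, 227 ± 336 in control liver, 174 ± 174 in cKO thymus and 211 ± 85.5 in control thymus, and Tnfsf4 had a mean of at most 42.8 in any group.

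Of 13 genes listed as receptors for the 9 ligands, 9 were in the table and all were tested. Whether each of them binds 1 of these ligands was not tested. None was called by limma, edgeR or DESeq2 in any of the 6 comparisons. By unadjusted limma p under 0.05 there were 0 in liver, 4 in thymus and 3 over both tissues, against 6.92%, 13.2% and 13.7% of all tested genes. With control thymus libraries 1 and 2 left out there were 0 in thymus and 1 over both tissues, against 8.09% and 11.9% of all tested genes. In thymus 7 of the 9 had positive log2 fold changes, with a median of 1.60 against 0.24 over all tested genes, and 0.72 against -0.01 with control thymus libraries 1 and 2 left out; in liver the median was -0.09 against 0.02. Tnfrsf10b, the death receptor that TRAIL binds in mice, had 418, 511 and 218 in cKO liver, against 191, 193 and 164 in control liver. In thymus it had 132, 1025 and 450 in cKO cells, against 0 reads, 46.3 and 217 in control cells. The liver groups did not overlap, with cKO liver the higher, but the log2 fold change of 0.98 had a 95% interval of -2.26 to 4.22 (limma adjusted p = 1). Fas, the receptor of Fas ligand, had 813, 248 and 449 in cKO liver, against 427, 302 and 231 in control liver, and 741, 863 and 1240 in cKO thymus, against 600, 200 and 516 in control thymus. Its thymic groups did not overlap (log2 fold change 1.22 ± 0.74 SE, limma adjusted p = 0.49). Other receptors of the list went the other way, and in liver 4 of the 9 had positive log2 fold changes. Tnfrsf26 had 50.3, 188 and 38.7 in cKO liver, against 556, 650 and 858 in control liver, without overlap. Tnfrsf22 averaged 139 in cKO liver and 269 in control liver, and 92.5 in cKO thymus and 603 in control thymus. Tnfrsf1b (TNF receptor 2) had the highest mean value of the list, 2094 ± 440 in cKO liver, 2464 ± 273 in control liver, 4491 ± 1055 in cKO thymus and 2827 ± 779 in control thymus, with SD over 3 libraries each. Tnfrsf1a (TNF receptor 1) averaged 580 ± 225 in cKO liver, 632 ± 480 in control liver, 1180 ± 339 in cKO thymus and 519 ± 362 in control thymus (SD, n = 3 each).

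Of 14 other TNF receptor genes 10 were tested. Limma called Tnfrsf9 (4-1BB, a costimulatory receptor of activated T cells) higher in thymus and over both tissues, against 0.636% and 2.27% of all tested genes. DESeq2 called it in each tissue and over both, and also Tnfrsf12a over both. DESeq2 shares were 2.22% in liver, 4.98% in thymus and 6.12% over both. Unadjusted limma p was under 0.05 for 3 of the 10 in liver, in thymus and over both. Those shares were 6.92%, 13.2% and 13.7% among all tested genes. Tnfrsf9 had values of 1916, 1473 and 3269 in cKO liver, against 636, 316 and 746 in control liver. In thymus it had 4483, 5084 and 3991 in cKO cells, against 220, 753 and 1071 in control cells. The genotypes did not overlap in either tissue, and the mean log2 fold change was 2.49 ± 0.41 (SE, limma adjusted p = 0.0024), called in each of the 21 alternative settings run for it. In thymus alone it was 3.00 ± 0.58 (limma adjusted p = 0.023), a call lost without any 1 of the 3 cKO thymus libraries, without control thymus library 1, without control thymus libraries 1 and 2, without the 2 libraries of low depth, and in a fit of the thymus libraries alone, with limma adjusted p of 0.053 to 0.59. In liver it was 1.98 ± 0.58 (limma adjusted p = 0.17). Cd27, a receptor of naive and memory T cells with the highest mean value of the list, averaged 4731 ± 1943 in cKO liver, 7421 ± 595 in control liver, 8368 ± 1361 in cKO thymus and 7344 ± 2735 in control thymus (SD, n = 3 each) and did not pass.

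Among the 20 receptor adaptors and death signalling genes, Traf1, an adaptor of TNF receptor complexes and an NF-kB target, fell over both tissues. It was the 1 gene of the 20 that limma called there, against 2.27% of all tested genes. Unadjusted limma p was under 0.05 for 3 of the 20 in liver, 4 in thymus and 4 over both tissues. Among all tested genes those shares were 6.92%, 13.2% and 13.7%. Traf1 had 14.1, 208 and 139 in cKO liver, against 1145, 2070 and 2354 in control liver. In thymus it had 260, 129 and 4.37 in cKO cells, against 346, 1435 and 589 in control cells. The genotypes did not overlap in either tissue, where 18.6% of all tested genes had no overlap in liver and 14.5% in thymus. Over both tissues the log2 fold change of Traf1 was -4.05 ± 0.93 (SE, limma adjusted p = 0.024). The call was lost without cKO liver library 1 or any 1 of the 3 control liver libraries, without the 2 libraries of low depth and without control thymus libraries 1 and 2, with limma adjusted p of 0.055 to 0.12. Casp8, the caspase that death receptors engage, averaged 5964 ± 465 in cKO liver, 6774 ± 1284 in control liver, 5055 ± 723 in cKO thymus and 6497 ± 1909 in control thymus (SD, n = 3 each), and did not pass limma. Fadd, the adaptor that couples death receptors to caspase 8, had 483, 613 and 768 in cKO liver, against 313, 84.1 and 255 in control liver. In thymus Fadd had 1061, 1488 and 470 in cKO cells, against 78.5, 12.8 and 229 in control cells. The genotypes did not overlap in either tissue, cKO cells being the higher. Over both tissues the log2 fold change of Fadd was 2.77 ± 0.74 (SE, limma adjusted p = 0.055), with adjusted p of 0.10 in edgeR and 0.0042 in DESeq2, and 1.83 (limma adjusted p = 0.17) with control thymus libraries 1 and 2 left out. DESeq2 also called Fadd in thymus, Traf1 in liver and Diablo, an antagonist of inhibitors of apoptosis, over both tissues (1.46, adjusted p = 0.048). Of the 20 genes DESeq2 thus called 1 in liver, 1 in thymus and 3 over both (Fadd, Traf1 and Diablo). Its shares of all its tested genes were 2.22%, 4.98% and 6.12%. In edgeR the 1 call was Traf1 over both tissues, against 1.94% of its tested genes. The inhibitor of apoptosis Xiap and the other 16 genes of the list were called by none of limma, edgeR and DESeq2 in these comparisons.

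**Figure D5:**
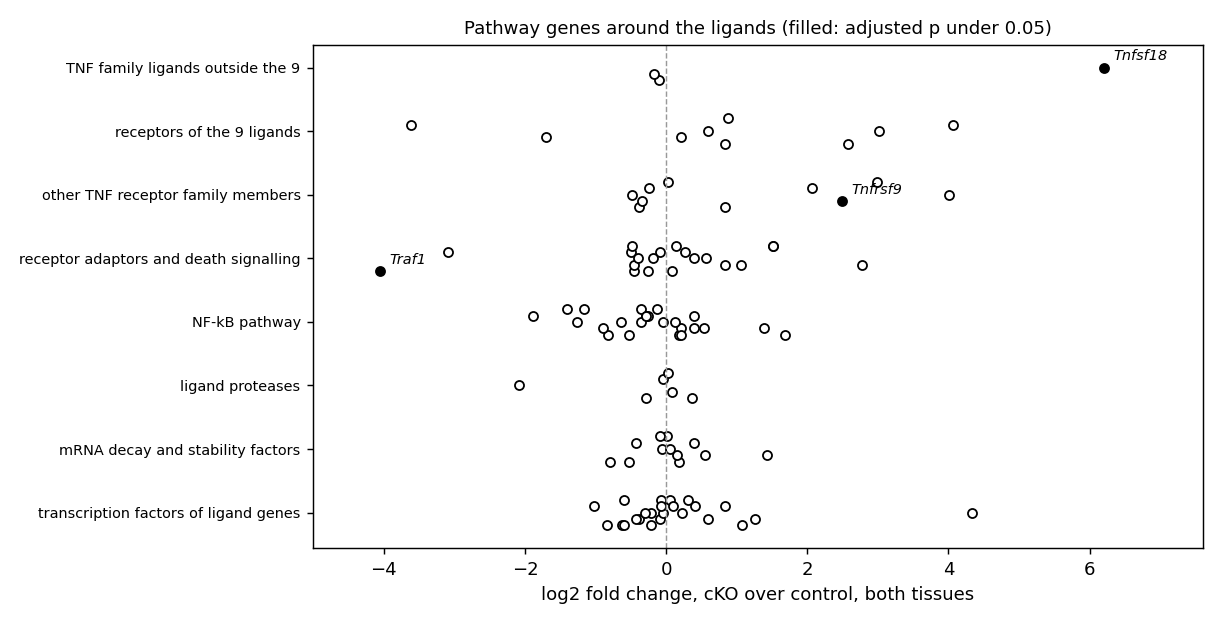
Log2 fold change over both tissues, cKO over control (horizontal axis), of each tested gene in the 8 lists around the ligands (rows, points spread vertically for legibility); filled points have an adjusted p under 0.05. The filled points are Tnfsf18 (6.21), Tnfrsf9 (2.49) and Traf1 (-4.05).

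The remaining 4 lists held no gene called by limma or edgeR in either tissue or over both. Of 24 NF-kB pathway genes, unadjusted limma p was under 0.05 for 0 in liver, 4 in thymus and 5 over both tissues. Over all tested genes the shares with such a limma p were 6.92% in liver, 13.2% in thymus and 13.7% over both. DESeq2 called 0 in liver, 1 in thymus and 3 over both. Its shares of all its tested genes were 2.22% in liver, 4.98% in thymus and 6.12% over both. The limma and DESeq2 shares hold for the lists that follow too. Of 8 ligand proteases 6 were tested, with unadjusted limma p under 0.05 for 2 in liver, 0 in thymus and 0 over both, and DESeq2 called 1 in liver, 0 in thymus and 1 over both. For 12 mRNA decay and stability factors each of these counts was 0. Of 25 transcription factors known for ligand genes 24 were tested, with unadjusted limma p under 0.05 for 2 in liver, 6 in thymus and 5 over both, and DESeq2 called 1 in liver, 2 in thymus and 2 over both. Adam17, the protease that sheds TNF and other ligands, was higher in value in cKO liver without overlap, at 3827 ± 354 against 1924 ± 124 in control liver (SD, n = 3 each), with a log2 fold change of 0.99 ± 0.42 (SE, limma adjusted p = 0.59). The other genes named for the highest mean in these lists did not pass: Tab2 and Cyld in the NF-kB pathway, Sppl2a among the proteases, Rc3h1 and Zfp36l1 among the decay factors and Elf1 among the transcription factors.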

How the data were processed

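RNA was isolated with RNeasy kits and libraries were made with the Ovation Ultralow system, per the labels' protocols. The build mm10 and the tools STAR, TopHat2 2.1.0, Trimmomatic 0.33, DESeq2 and HTSeq 0.6.1 are named, with no role or order, per the submitters' processing notes. The use of strand in counting is not given in the sources. The authors deposited 1 table of 14004 genes by 12 libraries, a signal adjusted for library size whose column totals were 21.4 to 32.0 M. The authors' adjustment is inferred from the values: they match read counts moved to a common library size by a negative binomial quantile method. Inverting it gave 80.2% to 100% of values per library (mean 95.8%) within 0.1 of a whole read, with 1 read worth 0.6148 to 6.663. For cKO liver libraries 1 and 2 and control liver library 3 the reads rest on that inversion alone. Recovered reads served for depth, counting limits, edgeR and DESeq2.

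Gene names, positions and exon lengths came from GENCODE M21 (GRCm38, the assembly mm10 names) by Ensembl identifier, with 13359 (95.4%) matched and 645 not. Testing took in the 13058 genes that reached 10 in 3 or more libraries and set 946 aside. The main test was limma 3.58.1 (R 4.3.3), fitted to log2(value + 1) as 4 group means with a variance trend, without covariates, at 8 residual and 10.7 prior degrees of freedom. In the plan edgeR's quasi-likelihood test was for raw counts only; the values are an adjusted signal, so limma was used, and edgeR 4.0.16 and DESeq2 1.42.0 on recovered reads were alternatives. P-values are two-sided with Benjamini-Hochberg adjustment over all tested genes and a threshold of 0.05; fold changes on the log2(value + 1) scale understate those of low genes. The scripts were tested on simulated data. Since the 4 groups share each gene's spread, p-values in the noisier groups may be too low.

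The 9 members, the 8 pathway lists and the 9 marker lists were chosen with earlier results of these data known. The text names all members and Ets1, up to 4 called genes and the 2 of highest mean in each pathway list, and for each member the 3 genes most like it. Fas, Tnfrsf10b, Tnfrsf22, Tnfrsf26, Tnfrsf12a, Fadd, Diablo, Xcl1 and single marker genes were named in addition after their values were seen. One gene that this rule names is not reported here. Sequences came from RefSeq (GRCm38.p6), in which 8 of the 9 members had a promoter. Figures were drawn with matplotlib 3.10.9.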

Additional observations from a re-analysis of the deposited data

How the results depend on the processing

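Tnfsf10 in liver kept its direction under all 22 alternatives (-2.30 to -1.86). Over single libraries left out, members called ranged from 0 to 1 in liver, in thymus and over both tissues, and genes called from 21 to 541 in thymus, 21 to 126 in liver, 170 to 546 over both tissues, 1 to 9 for the difference of the effects, 3 to 44 between tissues in cKO cells and 27 to 395 in control cells. Small effects turned sign most, in 21 of 130 recomputed values for Tnfsf8, 18 for Tnf and 17 for Tnfsf14 over the 6 comparisons; the cause was not tested. Low depth in cKO liver library 2 and control liver library 3 limits what liver and the low members can show. The many genes without a read in control thymus libraries 1 and 2 limit what thymus and the low members can show.

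Same-numbered libraries were not treated as pairs: 0 of 18 same-numbered pairs had deviations correlated over 0.1 (-0.0958 to 0.0803), although 8 of 12 libraries correlated best with their own number. Between the liver groups the same-numbered pairs correlated at 0.0783, 0.0803 and 0.0724, and the differently numbered pairs at -0.0572 to -0.0103. Whether the numbers mark a shared batch was not tested. With the replicate block, 1 member was called over both tissues, Tnfsf10 (-1.05, limma adjusted p = 0.04), and no other member's call changed. It was also the 1 member called over both tissues with a minimum value of 50, with a pseudocount of 10, after TMM rescaling, in edgeR and in DESeq2.

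Counts of genes called in the main analysis were 83 in thymus, 66 in liver, 297 over both tissues, 1 for the difference of the effects, 29 between tissues in cKO cells and 79 in control cells. A pseudocount of 10 gave 129 in thymus, 104 in liver, 3 for the difference and 54 in cKO cells. TMM rescaling gave 2 for the difference. It also moved the split of calls, to 27 higher and 90 lower in thymus (41 and 42 in the main analysis), 124 higher and 215 lower over both tissues (154 and 143) and 37 higher and 73 lower between tissues in control cells (44 and 35). Fits on the groups compared alone gave 0 in thymus, 292 in liver, 57 in cKO cells and 12 in control cells. Without the 2 libraries of low depth there were 22 in thymus, 7 in liver, of which 0 were members, 77 over both tissues, 3 in cKO cells and 18 in control cells. With control thymus libraries 1 and 2 left out there were 4 in thymus, 215 in liver, 185 over both tissues, 71 in cKO cells and 29 in control cells. In edgeR there were 51 in thymus, 39 in liver, 3 for the difference, 18 in cKO cells and 49 in control cells. DESeq2 called 613 in thymus, of which 1 was a member, 273 in liver, 753 over both tissues, 112 for the difference, of which 1 was a member, 263 in cKO cells and 478 in control cells.

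The log2 values that turned sign were these. A pseudocount of 10 put Tnfsf8 at 0.02 over both tissues. TMM rescaling put Tnfsf10 at -0.25 and Tnfsf14 at -0.04 in thymus, Tnfsf14 at -0.04 over both tissues and at 0 for the difference, and Ltb at -0.06 between tissues in control cells. Without the 2 libraries of low depth, Tnf was at 0.35 in liver, Tnfsf8 at 0.04 over both tissues and Fasl at -0.1 for the difference. With control thymus libraries 1 and 2 left out, Tnfsf8 was at 3.99 in thymus, 2.13 over both tissues and -3.7 for the difference, Tnfsf11 at -0.21 over both tissues, and between tissues in control cells Tnf was at -0.51, Lta at -0.08 and Ltb at -0.49. In edgeR, thymus values were -0.02 for Tnfsf10, 0.09 for Tnf and -0.03 for Tnfsf14, and Tnf was at 0.04 in liver. Its values over both tissues were 0.07 for Tnf, 0.17 for Tnfsf8 and -0.03 for Tnfsf14, and for the difference -0.06 for Fasl, -0.04 for Tnf and 0 for Tnfsf14. In DESeq2, thymus values were -0.05 for Tnfsf10, 0.07 for Tnf and -0.06 for Tnfsf14, and Tnf was at 0.04 in liver. Its values over both tissues were 0.06 for Tnf, 0.15 for Tnfsf8 and -0.04 for Tnfsf14, and for the difference -0.04 for Fasl, -0.03 for Tnf and 0.03 for Tnfsf14.

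With single libraries left out, log2 values that crossed 0 ranged in thymus from -0.33 to 0.27 for Tnfsf10, -0.6 to 0.11 for Fasl, -2.21 to 1.1 for Tnf, -0.45 to 0.38 for Ltb, -2.48 to 1.7 for Tnfsf8 and -0.06 to 0.86 for Tnfsf14. In liver they ranged from -0.7 to 0.44 for Tnf, -0.13 to 0.79 for Lta, -0.22 to 0.84 for Tnfsf8, -0.07 to 0.03 for Tnfsf14 and -0.34 to 0.02 for Cd40lg. Over both tissues they ranged from -1.22 to 0.44 for Tnf, -1.1 to 0.99 for Tnfsf8, -0.11 to 1.43 for Tnfsf11 and -0.04 to 0.42 for Tnfsf14. For the difference they ranged from -0.32 to 0.39 for Fasl, -1.32 to 1.99 for Tnf, -1.41 to 2.76 for Tnfsf8 and -0.89 to 0.03 for Tnfsf14. Between tissues they ranged from -0.92 to 0.78 for Tnfsf11 in cKO cells and from -0.16 to 0.62 for Ltb in control cells.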
